A study of Mus musculus with 14 samples.

Results

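The regions described here are open-chromatin regions that lie inside protein-coding genes and away from either end of any such gene. They were chosen by position: a region on chromosomes 1 to 19 had to overlap a RefSeq protein-coding gene by at least 1 bp and lie more than 5 kb from both bounds of every protein-coding gene, with a mean deposited signal of at least 100 over all 14 libraries. Of 705361 regions in the deposited table, 25129 reached that mean, and 5475 of these (21.8%) were gene-interior by this rule. The other tested regions were 15398 (61.3%) within 5 kb of a gene bound, called gene-end regions below, 3754 (14.9%) intergenic and 502 on other chromosomes or contigs. The threshold on the mean cut through a dense part of the distribution: 814 gene-interior regions had a mean of 100 to under 110 (median 105), and 1071 regions of the same position with a mean of 90 to under 100 (median 94.6) fell just outside.

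ATAC-seq cuts accessible DNA with a transposase, so the signal of a region rises with how open it is in the sorted cells. Open regions in gene bodies are often enhancers, bound by transcription factors and acting on the host gene or on another one, and some are internal promoters of shorter transcripts. In blood stem cells such elements are known to carry much of the difference between cell states, while promoters of widely used genes tend to be open in all of them. DNMT3A places DNA methylation, NPM1 is a nucleolar chaperone, and mutations of both genes occur together in acute myeloid leukaemia.

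Cells came from bone marrow of C57BL/6J mice in a transplant design. Marrow of young donors, 1000000 whole cells each, went into lethally irradiated CD45.1 recipients. The donors were WT (Mx-Cre), Dnmt3a-flR878H/+ (here Dnmt3a), Npm1-frt/+ (Npm1) or Dnmt3a-flR878H/+;Npm1-frt/+ (Dnmt3a;Npm1). Every recipient, WT marrow included, was given poly(I:C) after 4 weeks and tamoxifen after 4 more, and marrow was taken 4 weeks later. Mx-Cre is switched on by poly(I:C) in blood cells and also in other tissues. Long-term haematopoietic stem cells (LT-HSC) and MPP3, a multipotent progenitor population biased to myeloid cells, were sorted. LT-HSC gave 2 WT, 1 Dnmt3a, 2 Npm1 and 2 Dnmt3a;Npm1 libraries, and MPP3 gave 2 WT, 2 Dnmt3a, 2 Npm1 and 1 Dnmt3a;Npm1 library. Replicates carry the letters A and B. The labels do not say that they came from separate animals or pools, so a p-value here compares a difference with library-to-library variation that may be partly or wholly technical.

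The gene-interior regions had a median mean signal of 150, below the 261 of gene-end regions and close to the 144 of intergenic ones. Their median width was 1259 bp, against 1463 bp and 1157 bp. They lay a median of 19901 bp from the nearest gene bound, with 1124 of them over 50 kb and 371 over 100 kb away, in hosts of median length 95475 bp. There were 2731 host genes. Of these, 1557 held 1 region, 816 held 2 or 3, 334 held 4 to 9 and 24 held 10 or more. Of the regions, 29 lay in 2 overlapping genes and 1 lay in 24, among them 21 Pcdhg genes, the clustered protocadherins of cell adhesion, so its host cannot be named. For 4376 regions the strand of the host was known. From the 5′ to the 3′ end of the host, 5 equal stretches of gene length held 16.2%, 25.2%, 25.6%, 20.5% and 12.5% of them, a distribution thinned at both ends by the rule itself. A non-coding gene overlapped 582 regions, of which 533 met a long non-coding RNA and 14 a miRNA gene.

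Internal promoters set a subset of these regions apart. In 587 regions (10.7% of all 5475), within 557 genes, RefSeq promoter windows place a transcript start of the host gene inside the region. Their median mean signal was 259, against 144 for the 4888 with none known. Strand and starts came from the same windows, so a host of unknown strand could show no start. The strand was known for only 4376 regions, and regions lying only in hosts of unknown strand count among the 4888. Promoter windows of RefSeq (GRCm38.p6, the assembly named mm10), from 250 bases before to 50 after each start, were compared. The 687 windows at these starts held a median of 19 CpG and 62.0% GC, against 7 CpG and 52.7% GC over all 32851 promoter windows. The 687 lie in regions that passed the signal filter, and all windows were taken whether open here or not. Whether internal starts differ from other open promoters in these letters was therefore not tested. A GC box (GGGCGG on either strand) was present in 60.4% of them against 35.7% of all windows, and the ETS letters CCGGAAGT in 4.66% against 3.89%. RUNX letters (TGTGGT) were in 13.8% against 16.8%, and GATA letters (AGATAA) in 5.68% against 11.2%. CCAAT was in 32.3% against 37.4%, the E-box CACGTG in 6.84% against 7.15%, and the AP-1 letters (TGAGTCA or TGACTCA) in 5.24% against 5.2%. Both strands were read, the matches of different motifs may overlap, and a match of letters is a description, not a binding site.

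The following 5 windows belong to regions whose signal differed in a comparison described below. Prkg1 was the sole region at an internal start that was called between the cell types. Idh1, Psma6 and Pde4b were lower, and Tlcd3b higher, in Npm1 LT-HSC. They are shown because 3 of them are CpG-rich and 2 are not. Each is written 5′ to 3′ on the strand of its gene, with matches to the motifs above in capitals. Prkg1 is chr19:31664321-31664620 (minus strand, 20 CpG), with a GC box. Idh1 is chr1:65179093-65179392 (minus strand, 23 CpG), with a GC box. Psma6 is chr12:55398575-55398874 (plus strand, 22 CpG), with the ETS letters. Pde4b is chr4:102569810-102570109 (plus strand, 2 CpG), with CCAAT, and Tlcd3b is chr7:126823053-126823352 (plus strand, 6 CpG), with none of them.
Prkg1: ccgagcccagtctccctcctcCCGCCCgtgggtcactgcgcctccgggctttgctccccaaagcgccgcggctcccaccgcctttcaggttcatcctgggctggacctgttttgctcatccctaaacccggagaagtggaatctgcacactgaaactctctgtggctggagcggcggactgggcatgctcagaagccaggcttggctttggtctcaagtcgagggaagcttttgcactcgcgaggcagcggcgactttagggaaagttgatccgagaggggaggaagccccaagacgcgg
Idh1: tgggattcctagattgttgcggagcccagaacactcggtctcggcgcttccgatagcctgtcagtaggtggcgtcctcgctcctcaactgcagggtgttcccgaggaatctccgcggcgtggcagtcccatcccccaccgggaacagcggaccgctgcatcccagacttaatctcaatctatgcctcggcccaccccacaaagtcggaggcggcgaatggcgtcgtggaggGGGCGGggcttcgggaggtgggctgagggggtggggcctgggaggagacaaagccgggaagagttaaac
Psma6: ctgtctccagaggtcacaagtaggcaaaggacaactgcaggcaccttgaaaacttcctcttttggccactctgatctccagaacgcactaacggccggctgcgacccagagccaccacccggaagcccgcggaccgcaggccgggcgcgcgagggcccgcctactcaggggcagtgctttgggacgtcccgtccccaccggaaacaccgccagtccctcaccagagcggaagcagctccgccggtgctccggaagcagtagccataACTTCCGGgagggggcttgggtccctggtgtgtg
Pde4b: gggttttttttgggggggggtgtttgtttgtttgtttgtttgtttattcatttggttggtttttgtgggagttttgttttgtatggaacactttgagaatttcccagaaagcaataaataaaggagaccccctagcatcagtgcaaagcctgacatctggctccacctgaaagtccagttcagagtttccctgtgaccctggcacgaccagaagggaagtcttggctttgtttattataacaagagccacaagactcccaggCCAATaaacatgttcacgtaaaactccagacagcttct
Tlcd3b: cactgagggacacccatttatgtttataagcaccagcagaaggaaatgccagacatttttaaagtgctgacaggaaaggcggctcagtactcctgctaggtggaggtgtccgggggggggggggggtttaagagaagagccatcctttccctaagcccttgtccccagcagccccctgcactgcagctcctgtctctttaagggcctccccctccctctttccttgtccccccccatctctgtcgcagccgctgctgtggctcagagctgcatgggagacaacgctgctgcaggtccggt

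Libraries differed in how much of their signal lay in the tested regions, and that bears on every comparison. The summed deposited signal was 14683769 to 28748205 per library, and the share in tested regions ran from 15.7% to 51.6%. Both LT-HSC Npm1 libraries were at the bottom (19.5% and 15.7%), followed by the MPP3 Dnmt3a pair (22.3% and 26.6%). Gene-interior regions took 14.0% to 16.7% of the signal in tested regions, highest in LT-HSC Npm1 B. Reads in regions could be recovered for 8 libraries (7300000 to 18300000), and the depth of the other 6 is unknown. Values below are normalized signal, the deposited value divided by a factor per library, obtained by trimmed-mean (TMM) scaling. Differences are log2 differences of normalized signal plus 4, with limma's standard error (SE). A region is called at a Benjamini-Hochberg adjusted p under 0.05 over all 25129 tested regions. In bulk libraries, fewer cells with a region open and less opening per cell cannot be told apart.

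The first question was how MPP3 differ from LT-HSC with genotype held equal. Of the gene-interior regions, 36 were called (0.658%), where 0.41% of all tested regions were called. Of them 18 were higher in MPP3 (0.243% of all tested regions were called higher) and 18 were lower (0.167% of all). Regions in the GTPase-activating proteins Arhgap26 and Arhgap10 and the G-protein regulator Rgs3 were among the higher ones, and regions in the GATA cofactor Zfpm1, the cGMP-dependent kinase Prkg1 and Rgs6, also a G-protein regulator, were among the lower. Of gene-end regions 0.201% were called, and of intergenic ones 0.959%. At an unadjusted p under 0.05, 1002 gene-interior regions (18.3%) passed, where 15.0% of all tested regions did. The median difference was -0.01 for gene-interior regions and 0.01 for all. Of the 36, 34 had the same direction in all 4 genotypes. The exceptions were Vti1a, at -0.20 among Npm1 libraries, and Gse1, at 0.39 among Dnmt3a libraries. The calls rest on the mean of the 4 genotype differences, so the selection itself favours agreement in sign. It is no separate support, and it was not counted over all tested regions. For 71 regions (1.3%, against 0.883% of all tested regions) the 7 MPP3 libraries and the 7 LT-HSC libraries did not overlap, 32 of them higher in MPP3 and 39 lower, and these held 20 of the 36 called ones. The called regions lay at a median of 19820 bp (higher) and 26896 bp (lower) from a gene bound.

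**Figure D1:**
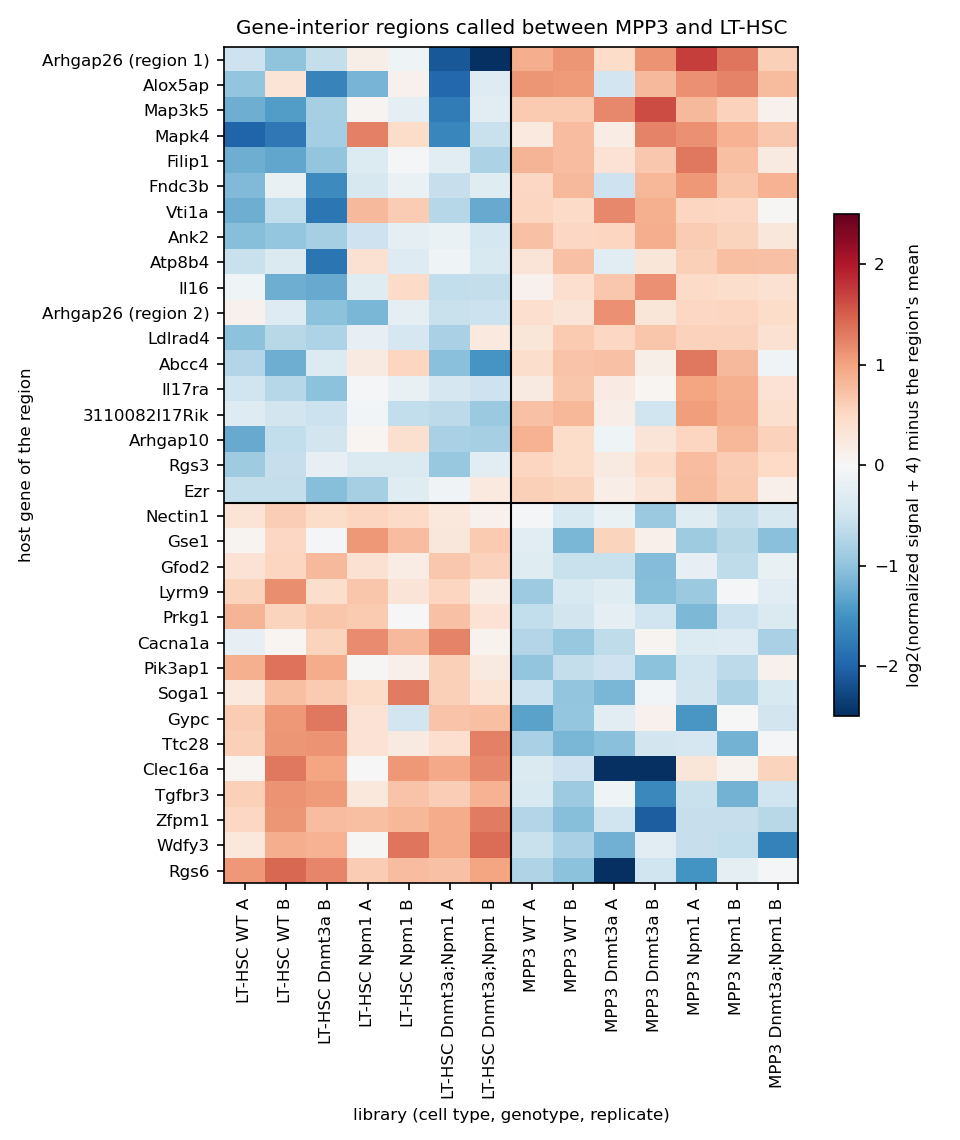
Log2 normalized signal (plus 4) of 33 of the called gene-interior regions, each minus its own mean over the 14 libraries. Columns are libraries, LT-HSC left of the black line and MPP3 right of it. Rows are named by host gene and ordered by difference, with the 18 regions higher in MPP3 above the line; Clec16a is low mainly in the 2 MPP3 Dnmt3a libraries, and Mapk4 is not low in the LT-HSC Npm1 pair.

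Among regions higher in MPP3, the smallest p belonged to a region of Arhgap26, whose product switches off small GTPases (chr18:38938544-38939743). Its normalized signal was 8.33, 65.7 and 113 (lowest, median, highest) in LT-HSC and 142, 223 and 345 in MPP3. Every MPP3 library lay above every LT-HSC library, and the 2 Dnmt3a;Npm1 LT-HSC libraries were the lowest, at 20.2 and 8.33. The difference was 1.97 (SE 0.28, limma adjusted p = 0.00989). A further region of the gene, chr18:39020421-39021373, was also higher, by 1.11 (SE 0.23, limma adjusted p = 0.0412), and its libraries did not overlap either. Both regions lie in one gene and are not independent loci.

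Rgs3 speeds the shut-off of heterotrimeric G proteins. Its region at chr4:62660442-62662836, which also overlaps a long non-coding RNA gene, had 151, 227 and 254 in LT-HSC and 342, 417 and 503 in MPP3. The cell types did not overlap, and the spread within each was narrow. The difference was 0.99 (SE 0.17, limma adjusted p = 0.0216), and it was 0.55 to 1.24 in the single genotypes. Arhgap10, another GTPase-activating protein, had 112, 178 and 363 in LT-HSC and 255, 401 and 501 in MPP3 at chr8:77482912-77485794. These ranges overlapped, since the 2 Npm1 LT-HSC libraries (285 and 363) were the highest of their cell type. The difference was 1.00 (SE 0.18, limma adjusted p = 0.0241). Genes of GTPase regulation held 143 gene-interior regions in 47 genes, and 4 were called, all higher: both regions of Arhgap26, Rgs3 and Arhgap10. Their median difference was 0.17, against 0.01 over all tested regions. This list was written with Arhgap26 and Rgs3 already known from these libraries, so the count is no independent evidence of a direction. It does not hold Rgs6, a gene of the same family as Rgs3, whose region was called lower (-1.87).

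Mapk4 encodes ERK4, an atypical MAP kinase. At chr18:73947746-73949576 its LT-HSC libraries had 41.5, 97.7 and 431 and its MPP3 libraries 205, 309 and 427. The ranges overlapped because of the Npm1 LT-HSC libraries, at 431 and 246, while the WT ones had 41.5 and 48.7. The difference over genotypes was 1.47 (SE 0.25, limma adjusted p = 0.0200), but it was 2.41 among WT and 0.15 among Npm1 libraries. Vti1a, a SNARE protein of vesicle fusion, showed the same arrangement at chr19:55548011-55549665, with 223 and 197 in Npm1 LT-HSC and 32.8 to 80.9 in the other LT-HSC libraries. Its difference was 1.27 (SE 0.24, limma adjusted p = 0.0274).

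Filip1, a filamin-interacting protein, had 44.8, 65.8 and 114 in LT-HSC and 137, 199 and 297 in MPP3 at chr9:79815559-79816913, with no overlap. It rose by 1.39 (SE 0.25, limma adjusted p = 0.0233). Ldlrad4, an inhibitor of TGF-β signalling, had 128, 163 and 314 against 331, 397 and 434 at chr18:68159242-68161232. It rose by 1.07 (SE 0.19, limma adjusted p = 0.0233), again with no overlap, though LT-HSC Dnmt3a;Npm1 B (314) came close to the lowest MPP3 library. Il17ra, a subunit of the interleukin-17 receptor, had 81.7, 119 and 165 against 175, 220 and 339 at chr6:120473276-120474226. It rose by 1.02 (SE 0.20, limma adjusted p = 0.0307), and the cell types did not overlap.

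The other called regions higher in MPP3 lay in Fndc3b (1.38), Il16 (1.11), Ezr (0.95), 3110082I17Rik (1.01), Ank2 (1.19), Map3k5 (1.53), Alox5ap (1.72), Atp8b4 (1.12) and Abcc4 (1.04). Il16 encodes the precursor of a T cell chemoattractant, Ezr the membrane-actin linker ezrin, and Map3k5 the stress-activated kinase ASK1. Alox5ap encodes the protein that presents arachidonic acid to 5-lipoxygenase in leukotriene synthesis, a pathway of myeloid cells. Its region had 23.2, 49.1 and 130 in LT-HSC and 71.6, 215 and 245 in MPP3, and MPP3 Dnmt3a A (71.6) fell among the LT-HSC values.

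**Figure D2:**
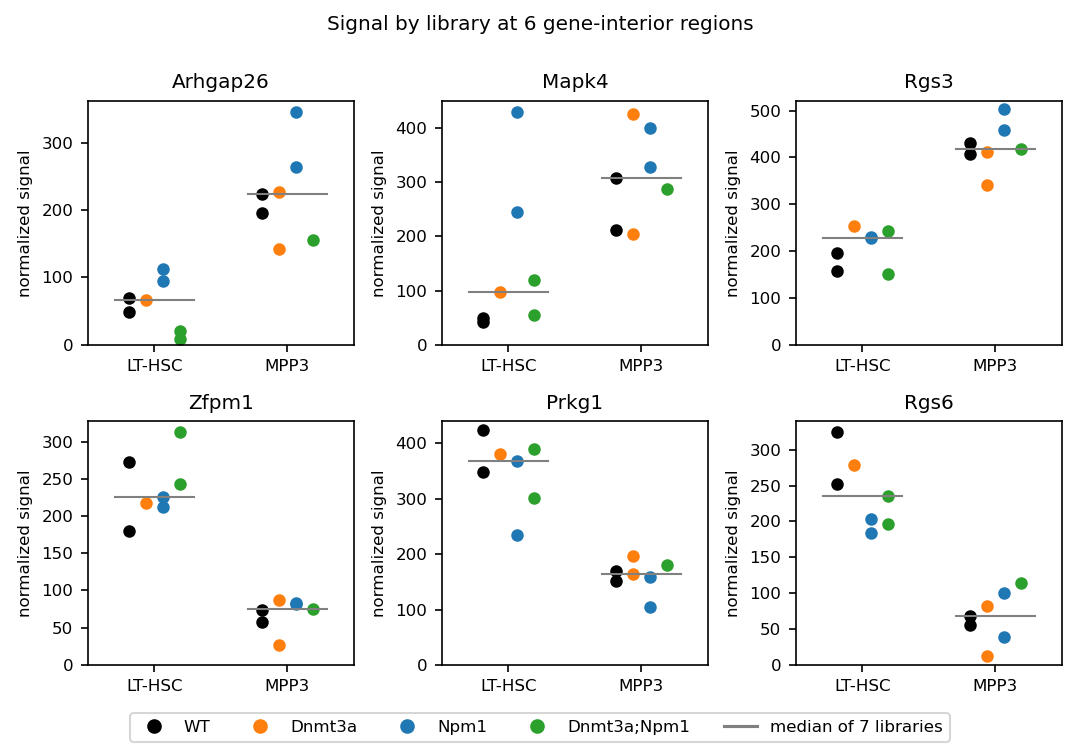
Normalized signal in each of the 14 libraries at 3 higher and 3 lower gene-interior regions among those of smallest p between MPP3 and LT-HSC. Points are libraries coloured by donor genotype, and grey lines are medians of 7 libraries; for Arhgap26, Rgs3, Zfpm1, Prkg1 and Rgs6 no LT-HSC library overlaps the MPP3 libraries, while for Mapk4 the Npm1 LT-HSC libraries (431 and 246) lie among them.

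Among regions lower in MPP3, Zfpm1 had the smallest p. It encodes FOG-1, a cofactor of GATA factors in the erythroid and megakaryocyte lineages. At chr8:122308957-122310156 its signal was 180, 226 and 313 in LT-HSC and 26.9, 75.7 and 87.5 in MPP3. The cell types were far apart in every genotype. The difference was -1.73 (SE 0.27, limma adjusted p = 0.0168), and -1.36 to -2.05 in the single genotypes.

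Prkg1, the cGMP-dependent protein kinase whose promoter window is printed above, had 234, 369 and 424 in LT-HSC and 105, 165 and 196 in MPP3 at chr19:31663551-31665049. It fell by 1.09 (SE 0.19, limma adjusted p = 0.0233) with no overlap. The gene spans 1200782 bp, and this internal start lies within the open region, 100219 bp from its nearest bound.

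Rgs6, like Rgs3 a regulator of G-protein signalling, went the other way. At chr12:83112063-83113755 it had 184, 236 and 324 in LT-HSC and 12.7, 67.9 and 114 in MPP3. The groups did not overlap, and the lowest value was that of MPP3 Dnmt3a A. The difference was -1.87 (SE 0.34, limma adjusted p = 0.0233). Wdfy3, an adaptor of selective autophagy, had 84.6, 159 and 222 against 22.6, 52.6 and 66.6 at chr5:102044648-102045524, without overlap, and fell by 1.76 (SE 0.34, limma adjusted p = 0.0294).

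Other called regions lower in MPP3 lay in Soga1 (-1.22), Pik3ap1 (-1.14), Ttc28 (-1.41), Nectin1 (-0.81), Gfod2 (-1.01), Cacna1a (-1.10), Tgfbr3 (-1.51), Gypc (-1.32), Lyrm9 (-1.07), Gse1 (-0.96) and Clec16a (-1.44). Pik3ap1 encodes the adaptor BCAP, which links receptors to PI3 kinase, Tgfbr3 the TGF-β co-receptor betaglycan, and Gypc the red cell membrane protein glycophorin C. The Tgfbr3 region ranged from 109 to 200 in LT-HSC and from 26.9 to 82.7 in MPP3, with no overlap. Clec16a was low mainly in the MPP3 Dnmt3a libraries: its difference was -3.80 among Dnmt3a libraries and -0.35 to -1.12 in the other genotypes.

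The number of called regions depended on single libraries and on the scaling. Without 1 of the libraries it was 0 (without LT-HSC Npm1 A, MPP3 WT B or MPP3 Npm1 A), 4 (MPP3 WT A or MPP3 Npm1 B), 10 (LT-HSC WT B), 16 (LT-HSC Dnmt3a B), 18 (LT-HSC Npm1 B), 22 (MPP3 Dnmt3a;Npm1 B), 55 (LT-HSC Dnmt3a;Npm1 A), 139 (MPP3 Dnmt3a B) or 164 (MPP3 Dnmt3a A). Without both LT-HSC Npm1 libraries it was 3, all higher. With signal scaled to the library total, 139 were higher and 17 lower, and the median over all tested regions moved to 0.21. Each region named above with an adjusted p kept its sign under every alternative tried, except that the second Arhgap26 region was not followed through the alternatives.

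Host genes of blood cell lists were then counted in the same comparison. Stem cell transcription factors held 78 gene-interior regions in 18 of 29 genes. Of these, 1 was called, lower in MPP3, and the median was -0.08. Hlf, a stem cell factor, had 123, 147 and 190 in LT-HSC and 46.8, 73.7 and 95.4 in MPP3, without overlap, but did not pass (-1.02, SE 0.27, limma adjusted p = 0.0844); without MPP3 Dnmt3a A it did (-1.14, limma adjusted p = 0.0242). Runx1 had 40.3, 91.6 and 171 against 110, 188 and 230 and did not pass either (1.03, SE 0.28, limma adjusted p = 0.103), except with signal scaled to the library total (1.24, limma adjusted p = 0.0115). Erythroid and megakaryocyte genes held 28 regions in 8 of 36 genes, with 1 called (Zfpm1), 7 positive and a median of -0.28. Myeloid genes held 9 regions in 6 of 38 genes, with none called, 6 positive and a median of 0.15. Lymphoid genes held 37 regions (median -0.04), stem cell surface genes 19 (0.00), niche and endothelial genes 14 (-0.14) and mast cell, basophil and eosinophil genes 2 (0.19), with none called by limma. Cytokine receptor and signalling genes held 93 regions, with Ldlrad4 and Il17ra higher, Pik3ap1 lower and a median of -0.03. Chromatin and leukaemia genes held 103 with none called and a median of -0.05, and neuronal and adhesion genes 34 with Prkg1 lower and a median of -0.34. The median over all tested regions was 0.01.

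Gse1 held more gene-interior regions than any other host: 43 over its 352883 bp. It encodes a subunit of the CoREST-type histone deacetylase and demethylase complex. Between the cell types, 40 of the 43 had a negative difference (median -0.41, range -1.51 to 0.36), and 1 was called. That region, chr8:120382238-120384253, had 200, 297 and 446 in LT-HSC and 91.4, 127 and 305 in MPP3. Its ranges overlapped, since the Dnmt3a MPP3 libraries had 305 and 227, and the difference was -0.96 (SE 0.21, limma adjusted p = 0.0466). Regions of one gene share their surroundings and are not independent. The strongest of them, chr8:120533800-120540703, covers an internal start and had 1160 to 1680 in LT-HSC and 1290 to 2030 in MPP3, with a difference of 0.22 (SE 0.11, limma adjusted p = 0.376). Of the next hosts, Zmiz1 had 8 of 16 regions positive, Cmip 9 of 15, Septin9 3 of 15 and Ptpre 10 of 14, with none called by limma.

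**Figure D3:**
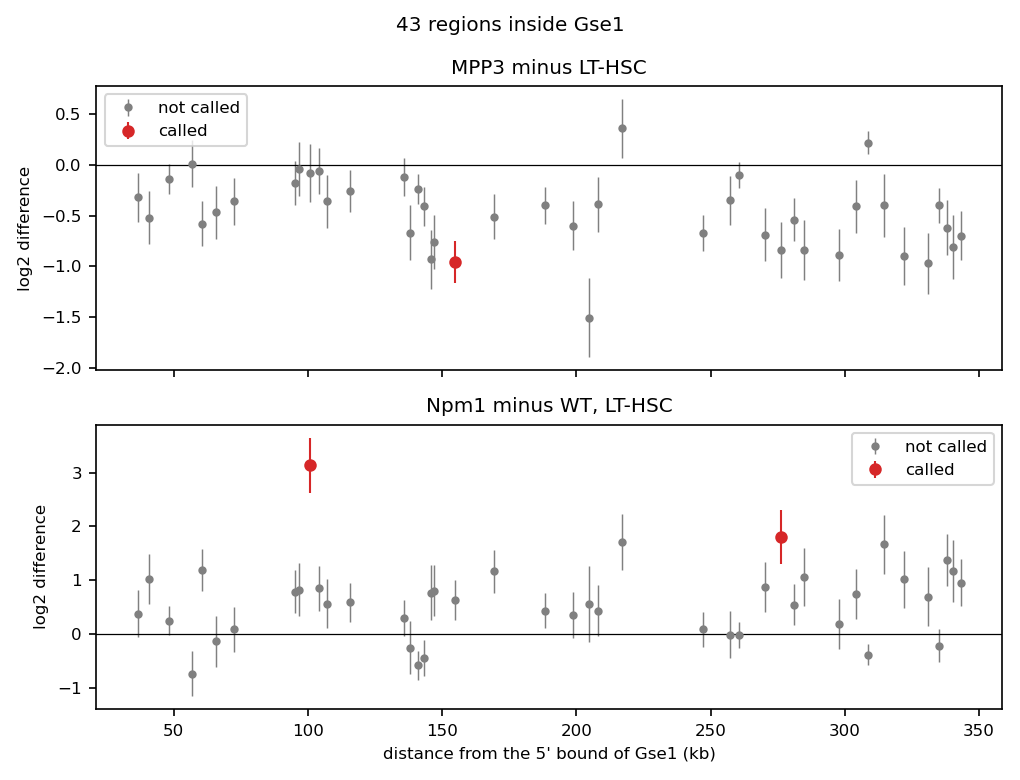
Log2 differences of the 43 gene-interior regions of Gse1 against distance in kb from the 5′ bound of the gene, with bars of 1 standard error. The upper panel (MPP3 minus LT-HSC) has 40 negative points and 1 called region; the lower panel (Npm1 minus WT in LT-HSC) has 34 positive points and 2 called regions.

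In WT libraries alone no gene-interior region was called by limma between MPP3 and LT-HSC, nor was any tested region (0.0%). At an unadjusted p under 0.05, 472 (8.62%) passed, where 5.69% of all tested regions did. Limma called 6 without LT-HSC WT A and 1 without MPP3 Dnmt3a A or B. The smallest p-values on the higher side were those of Mapk4 (2.41, SE 0.44), Fanca (2.31, SE 0.46) and Arhgap10 (1.59, SE 0.32), each at an adjusted p of 0.168. On the lower side were Cdh23 (-1.81, SE 0.38, limma adjusted p = 0.168), Pik3ap1 (-1.91, SE 0.41, limma adjusted p = 0.174) and Prdm11 (-1.32, SE 0.30, limma adjusted p = 0.227).

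The next question was the effect of the Npm1 allele in LT-HSC. Here 204 gene-interior regions were called (3.73%), where 4.85% of all tested regions were, so the share is below the background. Of these, 147 were higher in Npm1 (2.31% of all tested regions were called higher) and 57 lower (2.54% of all). Regions in Irf8, Notch1 and the histidine decarboxylase gene Hdc were among the higher ones, and regions in Stard13, Idh1, Mef2c and Selp among the lower. Gene-end regions had 237 higher and 534 lower, and intergenic ones 133 and 45. The median difference was 0.19 for gene-interior regions, -0.13 for gene-end regions and -0.01 for all. At an unadjusted p under 0.05, 1150 gene-interior regions (21.0%) passed, where 23.8% of all did.

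The calls split by signal and by internal starts. These traits are tied, since regions with an internal start had a median mean signal of 259, against 144 for those with none known. The splits were not compared at equal signal. The 147 higher regions had a median mean signal of 131 and a median width of 1764 bp, and 4.76% covered an internal start. The 57 lower ones had a median mean signal of 381 and a width of 1353 bp, and 22.8% covered one. Among the 1372 regions with the lowest mean signal (100 to 118) 55 were higher and 1 was lower, while among the 1369 with the highest (216 to 6480) 17 were higher and 46 lower. Regions with an internal start gave 7 higher and 13 lower of 587, and those with none known gave 140 and 44 of 4888. The latter include regions in hosts without promoter windows, where a start could not be found. Mean signal enters the rule that chose the regions, and the LT-HSC Npm1 libraries have small scale factors (0.485 and 0.35) and so weigh least in that mean. With all regions of mean signal of at least 50 fitted, 48 were higher and 283 lower, and with no filter 0 and 70. With signal scaled to the library total 35 were higher and 1754 lower, and the median over all tested regions moved from -0.01 to -1.14. With the share of signal in tested regions as a covariate, limma called 0. In that fit Stard13 was at -1.85, Tbc1d8 at 3.02, the Gse1 region at 3.33 and Mapk4 at 3.03, each with a limma adjusted p of 0.417, and Zfp992 at 1.79 (limma adjusted p = 0.662). The direction of the balance is therefore given only for the TMM scaling and this filter, and the part of the low share of signal in the result cannot be told apart from genotype in these 2 libraries.

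**Figure D4:**
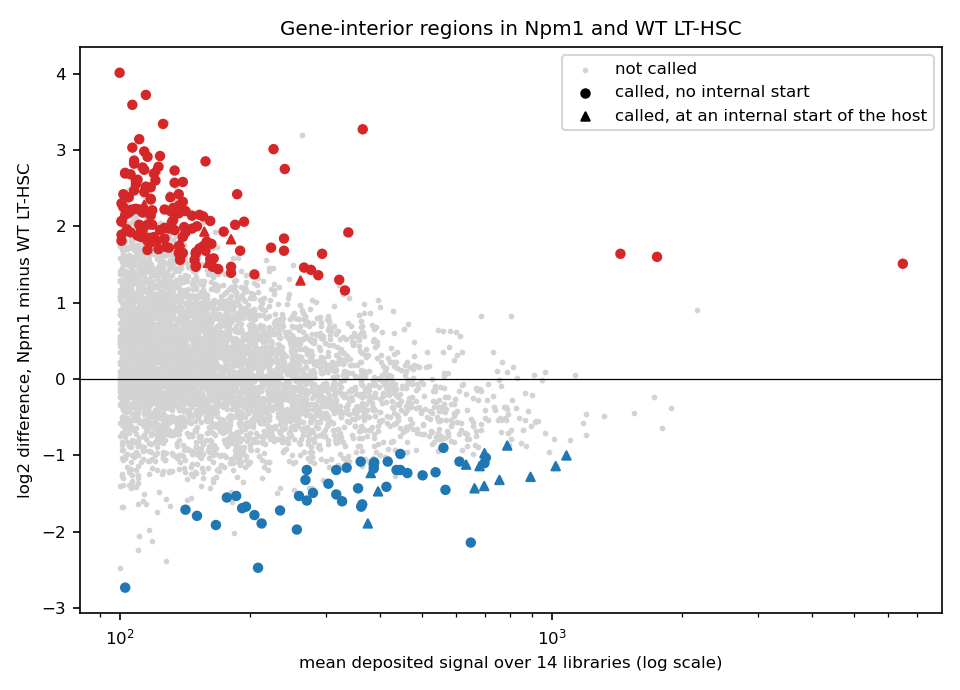
Log2 difference between Npm1 and WT LT-HSC against mean deposited signal (log axis) for the 5475 gene-interior regions. Red and blue symbols are the 147 higher and 57 lower called regions, triangles those at an internal start of the host; red symbols gather at low mean signal and blue ones at high.

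Stard13 encodes a GTPase-activating protein known as a suppressor of cell migration, and its region at chr5:151367829-151369331 had the smallest p. The signal was 791 and 509 in WT LT-HSC and 138 and 143 in Npm1 LT-HSC. The other 10 libraries lay at 476 to 657, well above the Npm1 pair. The difference was -2.14 (SE 0.28, limma adjusted p = 0.00207), and in MPP3 the same contrast gave 0.03 (SE 0.28). The difference between these 2 effects was 2.17 (SE 0.39), which did not pass over all regions (limma adjusted p = 0.263).

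Idh1, the cytosolic isocitrate dehydrogenase that is itself mutated in myeloid leukaemia, has an internal start in its region, chr1:65177871-65180218 (window printed above). WT LT-HSC had 742 and 647 and Npm1 LT-HSC 318 and 237. All other libraries lay between 576 and 774. It fell by 1.32 (SE 0.25, limma adjusted p = 0.0120). Psma6, a proteasome subunit, had 376 and 290 in WT and 51.6 and 143 in Npm1 at chr12:55398337-55399265, and fell by 1.89 (SE 0.39, limma adjusted p = 0.0151). Pde4b, a cAMP phosphodiesterase, had 450 and 487 against 142 and 194 at chr4:102569802-102571047, and fell by 1.47 (SE 0.28, limma adjusted p = 0.0121). The Npm1 libraries were the lowest of all 14 at these 3 regions.

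Atxn1 (-1.97, SE 0.37), Slf2 (-1.45, SE 0.28) and Zfp607b (-1.60, SE 0.31) completed the 6 lower regions of smallest p, with limma adjusted p-values of 0.0120, 0.0121 and 0.0121. Atxn1 had 336 and 252 in WT and 57.8 and 88.6 in Npm1 LT-HSC. In the erythroid and megakaryocyte list, 2 of 28 regions were called lower and none higher, while 18 of the 28 had a positive difference and the list's median was 0.28, against 0.19 over all gene-interior regions. Mef2c, a MADS-box factor of megakaryocytes and B cells, had 340 and 447 against 128 and 112 at chr13:83571822-83572767, a change of -1.67 (SE 0.35, limma adjusted p = 0.0151). Selp, the P-selectin of platelets and endothelium, had 481 and 447 against 175 and 220 at chr1:164135035-164136579, a change of -1.22 (SE 0.32, limma adjusted p = 0.0376).

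On the higher side, Tbc1d8, a Rab GTPase-activating protein family member, had 20.7 and 27.3 in WT LT-HSC and 311 and 246 in Npm1 LT-HSC at chr1:39449466-39450898. The Dnmt3a and Dnmt3a;Npm1 LT-HSC libraries, at 97.7 to 136, and the MPP3 libraries, at 73.7 to 163, lay between. The difference was 3.34 (SE 0.47, limma adjusted p = 0.00208), and in MPP3 it was 0.40 (SE 0.47). A Gse1 region, chr8:120328583-120330165, had 37.4 and 14.6 against 208 and 277, with 113 to 162 in the other LT-HSC libraries, a difference of 3.14 (SE 0.51, limma adjusted p = 0.00557). For both regions the WT LT-HSC libraries were the lowest of all 14. Zfp992, a zinc-finger gene with near-identical relatives among which reads may be shared, had 54.1 and 84.8 against 596 and 552, a difference of 3.01 (SE 0.45, limma adjusted p = 0.00324). The Mapk4 region described above had a difference of 2.75 (SE 0.44, limma adjusted p = 0.00512), Vti1a 1.64 (SE 0.43, limma adjusted p = 0.0363) and Arhgap10 1.16 (SE 0.32, limma adjusted p = 0.0451). These comparisons share libraries with that of the cell types.

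Among list genes, Irf8, a factor of monocyte and dendritic cell fate, gave the only called region of 9 in myeloid genes. At chr8:120743500-120745121 it had 72.3 and 78.9 in WT and 326 and 249 in Npm1 LT-HSC, with 65.7 to 182 in the other LT-HSC libraries, and rose by 1.86 (SE 0.51, limma adjusted p = 0.0425). Notch1, a receptor required for T cell fate, rose by 1.44 (SE 0.39, limma adjusted p = 0.0398) at chr2:26472138-26473933, from 132 and 110 to 359 and 312. It was the only called region of 37 in lymphoid genes. Hdc makes histamine and marks mast cells, basophils and myeloid-biased stem cells. Both of its regions were called, at 2.70 (SE 0.54, limma adjusted p = 0.0144) and 2.23 (SE 0.59, limma adjusted p = 0.0376). The first, chr2:126601621-126602771, had 36.4 and 19.5 in WT, 194 and 197 in Npm1, and 66.4 to 108 in the other LT-HSC libraries.

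Of 143 regions in genes of GTPase regulation 4 were higher and 2 lower: Arhgap18 (2.77), Arhgap31 (2.15), Tiam1 (2.18) and Arhgap10 higher, and Stard13 and a further region of Arhgap18 (-1.59) lower. The 2 Arhgap18 regions lie in 1 gene and moved in opposite directions. The higher one had 24.8 and 8.77 in WT and 118 and 137 in Npm1, and the lower one 302 and 292 in WT and 146 and 62.9 in Npm1. No region was called by limma in the 78 of stem cell transcription factors (median 0.27), the 19 of stem cell surface genes (0.16), the 14 of niche and endothelial genes (0.10), the 34 of neuronal and adhesion genes (0.19), the 93 of cytokine receptor and signalling genes (0.19) or the 103 of chromatin and leukaemia genes (0.05). The median over all gene-interior regions was 0.19. Among the hosts with most regions, Zmiz1 had 4 of 16 called higher, Ptpre 3 of 14, Gse1 2 of 43, Cmip 1 of 15 and Septin9 0 of 15. Over all tested regions 2.31% were called higher. Regions of one gene are not independent, and higher calls gathered at low mean signal in this comparison.

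The count of calls rested on which libraries entered. It was 30 without LT-HSC WT A, 59 without WT B, 61 without Npm1 A and 38 without Npm1 B, and the last left 6 higher and 32 lower. MPP3 libraries, which are in neither group compared, moved it too: without MPP3 Npm1 A or B the count was 99 or 100, and without MPP3 Dnmt3a A or B it was 382 or 378.

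In MPP3 no gene-interior region was called for Npm1 by limma (0.0% of all tested regions), and 8 passed an unadjusted p under 0.05, where 0.123% of all did. If no region differed, a calibrated p would pass in a share of about 0.05. The share here is far below that, so the lack of calls is no evidence of no effect. Whether the spread shared over all groups is too large for this pair was not tested. The same limit holds for Dnmt3a in LT-HSC and Dnmt3a;Npm1 in MPP3 below. The 204 regions called in LT-HSC had median differences of 0.08 (those higher there) and 0.02 (those lower there) in MPP3. Tested as an interaction over all regions, no Npm1 effect differed between the cell types past the threshold (limma, 0.0% of all tested regions, smallest adjusted p 0.263). At an unadjusted p under 0.05, 510 gene-interior regions (9.32%) passed, where 12.2% of all did. Without MPP3 WT B limma called 6. Stard13 (2.17, SE 0.39), Idh1 (1.53, SE 0.35) and Slf2 (1.68, SE 0.39) had the smallest p among positive interactions. Cmss1 (-1.65, SE 0.32), Zc3h7a (-1.58, SE 0.32) and Tbc1d8 (-2.93, SE 0.66) had the smallest among negative ones.

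With both alleles in LT-HSC, no gene-interior region was called by limma (0.00398% of all tested regions, which is 1 region), and 372 (6.79%) passed an unadjusted p under 0.05, where 5.88% of all did. Limma called 22 without LT-HSC Dnmt3a;Npm1 A and 1 without LT-HSC WT A. The smallest p-values were those of the Gse1 and Tbc1d8 regions already described, at 2.52 (SE 0.51) and 2.22 (SE 0.47), each with a limma adjusted p of 0.518. With the Dnmt3a allele in LT-HSC, a single library, none was called by limma (0.0% of all) and 91 (1.66%) passed an unadjusted p under 0.05, against 1.33% of all. The smallest p-values there were those of regions in Krt78 on the higher side (2.55) and Bahcc1 on the lower side (-2.4). The Gse1 and Tbc1d8 regions came after Krt78 on the higher side, at 2.07 (SE 0.63) and 1.87 (SE 0.57), and did not pass either. Since the 3 mutant groups were compared with the same 2 WT libraries, which were low at both regions, these values are not independent of each other.

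In Dnmt3a MPP3 no gene-interior region was called by limma (0.0% of all tested regions). At an unadjusted p under 0.05, 532 (9.72%) passed, where 10.1% of all did. The smallest p was that of Plekha2, an adaptor that binds phosphoinositides, at chr8:25090368-25091651. It had 242 and 196 in WT MPP3 and 12.7 and 42.1 in Dnmt3a MPP3, a difference of -3.0 (SE 0.51, limma adjusted p = 0.0783). It passed without MPP3 Dnmt3a A (-2.27, limma adjusted p = 0.0485) and without MPP3 Dnmt3a B (-3.73, limma adjusted p = 0.00154). The Dnmt3a MPP3 pair was the lowest of all 14 libraries. Pparg, the nuclear receptor of fat cell differentiation, was at -2.20 (SE 0.44, limma adjusted p = 0.168), and Camk2b, a calcium-dependent kinase, at 1.64 (SE 0.35, limma adjusted p = 0.210). Without MPP3 Dnmt3a A limma called 21 regions, without MPP3 Dnmt3a B 72 and without MPP3 WT A 8. With both alleles in MPP3, a single library, none was called by limma (0.0% of all) and 30 (0.548%) passed an unadjusted p under 0.05, against 0.39% of all.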

How the data were processed

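ATAC-seq signal was analysed in 14 libraries, grouped by the labels' cell type and genotype into 8 groups, 6 of 2 libraries and 2 of 1. For 1 library the title gives no cell type, and it was taken from the cell type field. The deposited table gives 1 signal value per region and library in build mm10. The signal values deposited by the authors are whole numbers and were treated as scaled signal, not as raw counts. In 8 libraries their low end falls on multiples of a step of 1.1 to 2.62, as reads scaled by a constant for each library and then rounded would. No such step was found in the other 6, so scaling was not shown for them. R 3.6.0, HOMER 4.10, edgeR 3.26.4 and DiffBind 2.12.0 are named in the submitters' processing notes. Whether read ends were shifted for the transposase, the aligner and the peak caller are not given in the sources used here. A count test was therefore not used.

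Regions of mean signal of at least 100 were kept. TMM factors (trims of 30% and 5%) were computed, and limma 3.58.1 (R 4.3.3) was fitted to log2(value / factor + 4) over all groups with a trended, robust prior, two-sided, with Benjamini-Hochberg adjustment within each of 9 comparisons. A group of 1 library was taken to have the spread of the others. A log2 difference on this scale understates changes of low regions. The fit was tested on simulated data. Gene bounds and promoter windows came from RefSeq GRCm38.p6. No genome sequence or exon annotation was used, so exons and introns were not told apart, and no list of problem regions was applied. Python 3.11.15 with pandas 2.3.3 did the rest.

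The regions, the 11 host gene lists (432 genes) and the filter were chosen with earlier results of these data known. The lists include genes already seen to change, such as Arhgap26, Rgs3, Ldlrad4, Prkg1, Cdh23, Pik3ap1 and Stard13, and support nothing on their own. Named regions were, with 1 per host gene, up to 10 called regions in each direction, by p, between the cell types and up to 6 in other comparisons. Where fewer than 5 were called, 3 per direction were named by p. The 5 hosts with most regions, the 5 regions of highest mean and up to 3 regions per list were added. Other names were chosen after their values were seen: the remaining called regions between the cell types, called regions of list genes in Npm1 LT-HSC, the printed windows and narrow regions of high signal. Some called regions that this rule names are not reported here. Alternatives were other pseudocounts, filters, scalings, spread models, a covariate, the replicate block, other distances from gene bounds and leaving out libraries.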

Additional observations from a re-analysis of the deposited data

How the results depend on the processing

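The numbers of called gene-interior regions moved with the filter, the scaling and single libraries, and the cause was not tested. A minimum mean of 200 also drops every gene-interior region below it, while the other filters and scalings count all 5475. In the main fit the 1369 regions of highest mean (216 to 6480) held 8 higher and 6 lower calls between the cell types. For Npm1 in LT-HSC they held 17 and 46. Between the cell types (36 regions) the numbers were 17 with a minimum mean of 200, 2 with no filter and 156 scaled to the library total. They were 103 after quantile normalization and 11 with the share of signal in tested regions as a covariate. They were 3 without both LT-HSC Npm1 libraries and 176 without both MPP3 Dnmt3a libraries (chosen after seeing the data), and 0 to 164 when 1 library was left out. For Npm1 in LT-HSC (204) they were 331 and 58 with minimum means of 50 and 200, 70 with no filter, 1789 scaled to the library total, 51 after cyclic loess and 0 with the covariate. They were 49 without trend and robust prior, 361 with only the groups compared, 376 without both MPP3 Dnmt3a libraries, and 30 to 382 with 1 library left out.

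Where no region was called, scaling to the library total gave 13 in WT cells, 2 for Dnmt3a;Npm1 in LT-HSC, 132 for Dnmt3a in MPP3 and 1 for the interaction, and no filter gave 1 for Dnmt3a in MPP3. Leaving out both MPP3 Dnmt3a libraries gave 1 in WT cells. Leaving out 1 library gave 0 to 6 in WT cells, 0 to 22 for Dnmt3a;Npm1 in LT-HSC, 0 to 72 for Dnmt3a in MPP3 and 0 to 6 for the interaction. For Dnmt3a in LT-HSC, Npm1 in MPP3 and Dnmt3a;Npm1 in MPP3 limma called 0 under each alternative run.

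Other pseudocounts, median-of-ratios factors and limits of 2 or 10 kb from gene bounds left both counts above 0 within 1.5 times. The replicate block gave 30 regions between the cell types (26 of them among the 36) and 184 for Npm1 in LT-HSC, and 0 elsewhere. The labels do not say whether the letters pair samples across groups. Over 15 pairs of groups the correlation of deviations (A minus B) was -0.251 to 0.421 (median -0.0278), with 1 over 0.1. These deviations also hold library differences such as the share of signal in tested regions, so they cannot settle the pairing. Membership by exons could not be run, as no exon annotation was used.

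For the named regions called, 729 values under alternatives stayed past the threshold, 235 fell short of it and 2 changed sign: with no filter Zc3h7a was at -0.07 and Cmss1 at -0.12 for Npm1 in LT-HSC. For named regions that were not called, 42 values under alternatives passed the threshold, 1956 stayed short of it and 11 changed sign. Values near 0 that changed sign between the cell types, none of them called, were Chl1 at -0.05 and Gse1 at -0.0 after cyclic loess, and Ywhaz at -0.01 without both LT-HSC Npm1 libraries. Cmss1 was at -0.11 without both MPP3 Dnmt3a libraries and ranged from -0.11 to 0.46 with 1 library left out. Cdk8 was at 0.12 with no filter, 0.11 scaled to the library total, 0.03 with the covariate and 0.18 without both LT-HSC Npm1 libraries, and ranged from -0.58 to 0.17 with 1 library left out. Depth is unknown for 6 libraries, so counting error was not separated from other spread.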

Other observations

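A few narrow gene-interior regions carried far more signal per base than the rest. The median over the 5475 regions was 0.131 signal units per bp of width. A region of 720 bp in Chl1, a neural cell adhesion gene, had 9.00 per bp and the highest mean of all gene-interior regions, 6480. Regions in Zc3h7a (466 bp, 3.09 per bp), in the overlap of Cmss1 and Filip1l (617 bp, 2.84 per bp) and in Cdk8 (1057 bp, 2.05 per bp) came next, followed by Jarid2 (509 bp, 1.18 per bp) and Camk1d (809 bp, 0.994 per bp). No other gene-interior region reached 0.9 per bp.

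At Zc3h7a, Cmss1 and Chl1 the 3 highest of the 14 libraries were both LT-HSC Npm1 libraries and MPP3 Dnmt3a A, whose shares of signal in tested regions (19.5%, 15.7% and 22.3%) were the lowest. At Zc3h7a the normalized signal was 709 and 810 in WT LT-HSC, 2340 and 2410 in Npm1 LT-HSC, 1610 and 1350 in WT MPP3 and 2320 and 1620 in Dnmt3a MPP3. At Chl1 it was 3350 and 4500, 10400 and 11700, 6190 and 3420, and 16500 and 6850 in the same groups. Zc3h7a (1.64, SE 0.23, limma adjusted p = 0.00208), Cmss1 (1.60, SE 0.23, limma adjusted p = 0.00224) and Chl1 (1.51, SE 0.37, limma adjusted p = 0.0359) were called higher for Npm1 in LT-HSC. Cdk8 (0.91, SE 0.27, limma adjusted p = 0.0513), Camk1d (0.83, SE 0.29, limma adjusted p = 0.0910) and Jarid2 (0.61, SE 0.35, limma adjusted p = 0.297) were not. With that share as a covariate, Zc3h7a was at 1.28 (limma adjusted p = 0.417) and Cmss1 at 1.16 (limma adjusted p = 0.506).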
